A study of Mus musculus with 9 samples.

Results

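Irradiated and vehicle-treated melanocyte stem cells of mouse skin were compared across all genes, with 3 libraries in each group. These 6 libraries, chosen by their label as 5 Gy or vehicle and called IR 1 to 3 and vehicle 1 to 3, belong to a series of 9. The other 3 came from mice given DMBA, a chemical carcinogen, and were kept in the fit to estimate the spread between libraries. They therefore also entered the count filter, the scaling, the keratinocyte covariate fit and the expression classes. All 9 were made from cells purified by flow sorting from the skin of mice with the genotype Dct-H2B-GFP KI/+, in which a nuclear green fluorescent protein is driven from the locus of Dct, a melanin synthesis gene. Vehicle mice and mice given 5 Gy of ionizing radiation (IR) carried the same allele, so the reporter was shared by both groups. The sources used here do not give age, sex, the hair cycle stage or the time between treatment and sorting. Nothing in the labels says that the replicates came from separate animals, so each p-value measures only the spread between these libraries.

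Melanocyte stem cells sit in the hair follicle and supply the pigment cells of each new hair. In irradiated cells, broken DNA activates the transcription factor p53, whose targets arrest the cell cycle, repair DNA or start cell death, and NF-kB, whose targets include inflammatory and survival genes. The follicle's keratinocytes surround these stem cells, and RNA from neighbouring cells can enter a sorted sample.

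Library totals lay between 6938406 and 8156905 counts over the 9 libraries. Of 55359 genes in the table, 16051 had enough counts over the 9 libraries to be tested, and the 39308 removed genes held 0.305% of all counts. With the 6 libraries alone, 14842 genes were tested. Of 12 melanocyte markers most were high in all 6 libraries, while Oca2 was at 0.25 to 2.95 CPM and Gpr143 at 9.5 to 24.4 CPM. Kit, the receptor that melanocytes depend on, had 1600.1, 1555 and 1542 CPM in vehicle 1 to 3 and 1523, 1850.5 and 2008 CPM in IR 1 to 3. Markers of basal keratinocytes were also high in every library, with Krt5 at 819, 703 and 1064 CPM in vehicle 1 to 3 and 1808, 304 and 583 CPM in IR 1 to 3. Fibroblast, endothelial, T cell, mast cell and erythrocyte markers were at or near 0, with summed levels of at most 5.48 FPKM in any of the 6 libraries. Markers of Schwann cells, a related neural crest lineage, summed to 118 to 147 FPKM in vehicle and 125 to 129 FPKM in irradiated libraries.

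After irradiation 114 of the 16051 tested genes were higher (0.710%) and 4 were lower (0.0249%) at an adjusted p under 0.05 in edgeR's quasi-likelihood test. With no adjustment, a p under 0.05 was reached by 791 genes that were higher (4.93%) and 535 that were lower (3.33%). The median log2 fold change over all tested genes was -0.002. Of the genes called higher, 26 are on a list of p53 targets with 58 tested members and 11 on a list of NF-kB response genes with 27. The remaining 77 are on neither list, and 66 of them on none of the lists used. All 114 had 3 irradiated libraries above 3 vehicle libraries, a pattern that 1231 of all tested genes showed (7.67%). The reverse pattern occurred in 988 (6.16%).

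Rises outside both lists were smaller in the median than those on them. The median rise, as the ratio of mean CPM (counts scaled to library size), was 2.63-fold for the 77 genes outside the lists and 4.67-fold for the 37 on them. Outside the lists, 17 genes rose less than 2-fold, 32 rose 2- to 4-fold, 11 rose 4- to 8-fold and 17 rose more than 8-fold. On the lists the same classes held 3, 12, 14 and 8 genes. The lists were compiled with earlier results of these data known and do not hold every gene that p53 or NF-kB has been reported to act on. Susd6, Lpin1, Cpt1c and Mmp2, for example, have been described in other cells as p53-responsive.

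Genes outside the lists are described by known role, an order made after their values were seen. Several of those with the smallest p act in stress and damage signalling. Map3k20, a kinase of the stress-activated pathways that responds to stalled ribosomes, had 55.1, 56.0 and 62.9 CPM in vehicle 1 to 3 and 320.0, 270.2 and 246 CPM in IR 1 to 3. Its fitted log2 fold change was 2.26 ± 0.18 (SE) with an adjusted p of 4.49e-07, the smallest among these genes with a symbol other than a predicted one. The lowest irradiated value lay far above the highest vehicle value. Inka2, an inhibitor of the kinase Pak4, was at 5.40, 12.8 and 3.74 CPM in vehicle 1 to 3 and 131, 139.9 and 143 CPM in IR 1 to 3, which is a log2 change of 4.23 ± 0.43 (adjusted p 1.53e-05). Rnf169, a protein that binds ubiquitin-marked chromatin at broken DNA, went from 139 ± 22.4 to 348 ± 44.3 CPM (SD, n = 3), a log2 change of 1.32 ± 0.17 (adjusted p 0.000141). Both genes had no overlap between groups, and vehicle 2 was the highest vehicle library for each. Ddias, named for its induction by DNA damage and its anti-apoptotic role, rose from 3.82 ± 1.53 to 36.3 ± 7.12 CPM (SD, n = 3) (adjusted p 0.000975). Dyrk3, a kinase that dissolves stress granules, rose from 1.48 ± 2.44 to 50.1 ± 7.70 CPM (SD, n = 3) (adjusted p 0.0022), with almost all vehicle signal in vehicle 1 (4.30 CPM, against 0 and 0.144). Susd6, a membrane protein, rose from 85.6 ± 14.8 to 205 ± 9.38 CPM (SD, n = 3) (adjusted p 0.000481).

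A second set acts at the cell surface and on the cytoskeleton. Fat1, a giant cadherin of cell contacts, had 239, 180.1 and 232 CPM in vehicle 1 to 3 and 749, 807 and 705 CPM in IR 1 to 3, a log2 change of 1.79 ± 0.17 (adjusted p 3.62e-06). The 3 irradiated libraries lay close together and far above the 3 vehicle libraries. Plxna1, a receptor for semaphorin guidance cues, stood at 174, 131 and 173 CPM in vehicle 1 to 3 and 418, 441 and 452 CPM in IR 1 to 3 (log2 change 1.46 ± 0.17, adjusted p 8.04e-05). Exoc4, a subunit of the exocyst that tethers vesicles to the plasma membrane, rose from 86.3 ± 14 to 314 ± 60.2 CPM (SD, n = 3) (adjusted p 1.74e-05). Genes linked to small GTPases were among those called: Arap2 rose 2.25-fold, the Cdc42-binding kinase Cdc42bpg 2.72-fold and the exchange factor Arhgef40 2.21-fold, with adjusted p of 0.000438, 0.000837 and 0.00132. Genes annotated as GTPase activators or exchange factors, a list added after the values were seen, were near the background as a group. Of 227 tested, 2 were called higher, Arhgef40 and Arhgap35, against 0.710% of all genes, and the list median was 0.02. Arap2 and Cdc42bpg are not on that list. Cep170b, a centrosomal protein, rose 2.60-fold (adjusted p 0.000168). The hyaluronan receptor Cd44 had 557, 412 and 526 CPM in vehicle 1 to 3 and 1014, 904 and 1037 CPM in IR 1 to 3, a log2 change of 0.98 ± 0.16 (adjusted p 0.0023). Mmp2, a secreted gelatinase, had 4.66, 4.04 and 0 CPM in vehicle 1 to 3 and 38.5, 57.2 and 36.6 CPM in IR 1 to 3 (log2 change 3.90 ± 0.71, adjusted p 0.00793). The call for Mmp2 was lost in limma on log2(FPKM + 0.1), at an adjusted p of 0.12. The mechanically gated channel Piezo1 rose 2.03-fold and the endoplasmic reticulum calcium sensor Stim1 1.9-fold (adjusted p 0.00163 and 0.00662). Without vehicle 2 the adjusted p of Stim1 was 0.0645.

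Genes of lipid handling, transport and protein turnover also rose. Lpin1, a phosphatidate phosphatase, had 227, 260.2 and 278 CPM in vehicle 1 to 3 and 443, 627 and 608 CPM in IR 1 to 3, with a log2 change of 1.13 ± 0.16 (adjusted p 0.000701). Cpt1c, a brain-type member of the carnitine palmitoyltransferases, had 4, 0 and 3 counts in vehicle 1 to 3 and 189, 107 and 113 counts in IR 1 to 3 (adjusted p 0.000551). That is a near-absent transcript in every vehicle library and a low but present one in every irradiated library. Abcb1b, a drug efflux pump, had 1.60, 3.23 and 1.01 CPM in vehicle 1 to 3 and 54.4, 13.4 and 20.3 CPM in IR 1 to 3 (log2 change 3.90 ± 0.65, adjusted p 0.00297). Its IR 1 value stands well above the other irradiated values, and all 3 exceed every vehicle value. Abcb1b was not called in limma on log2(FPKM + 0.1) or log2(FPKM + 1) (adjusted p 0.18 and 0.211). Pgpep1, a peptidase that removes pyroglutamate, rose from 19.7 ± 1.06 to 93.2 ± 12.7 CPM (SD, n = 3) (adjusted p 2.17e-05). Commd3, a protein of endosomal sorting, rose 3.00-fold and Itpripl1 3.97-fold (adjusted p 0.000701 and 0.000423). The largest subunit of RNA polymerase II, Polr2a, had 733, 661 and 677 CPM in vehicle 1 to 3 and 1061, 1220.5 and 1111 CPM in IR 1 to 3, a log2 change of 0.71 ± 0.14 (adjusted p 0.0135). It was not called without IR 2, vehicle 2 or vehicle 3 (adjusted p 0.0675, 0.113 and 0.0857).

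Immune and cell death regulators made up another set. Isg20, an exonuclease first known as an interferon-stimulated gene, had 0, 0 and 2 counts in vehicle 1 to 3 and 213, 115 and 271 counts in IR 1 to 3. The ratio of summed counts, scaled to the same library sizes as the CPM, was 302 with an exact 95% interval of 83.3 to 2502 that covers counting error only (adjusted p 3.36e-05). Akna, an AT-hook protein linked to Cd40 expression, had 79.7, 80.8 and 83.5 CPM in vehicle 1 to 3 and 203, 246 and 232 CPM in IR 1 to 3 (log2 change 1.48 ± 0.16, adjusted p 3.36e-05). Rhbdf2, a rhomboid-like protein required for release of TNF, rose from 21.1 ± 5.85 to 106 ± 16.4 CPM (SD, n = 3) (adjusted p 0.000369). Rnf213, a very large ubiquitin ligase, rose 2.43-fold (adjusted p 0.000883). Further called genes with roles near NF-kB or cell death, named after their values were seen, had weaker calls. Traf3, an adaptor of TNF receptors, rose 3.31-fold (adjusted p 0.0342), Birc2, an inhibitor of apoptosis, 1.84-fold (0.0343), Casp4, the inflammatory caspase, 2.60-fold (0.0205) and Cd274, the checkpoint ligand PD-L1, 1.91-fold (0.0444). Each of these 4 lost its call without at least 4 of the 6 libraries in turn, with adjusted p of 0.0644 to 0.205 for Traf3, 0.087 to 0.203 for Birc2, 0.0525 to 0.154 for Casp4 and 0.0605 to 0.252 for Cd274.

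**Figure D1:**
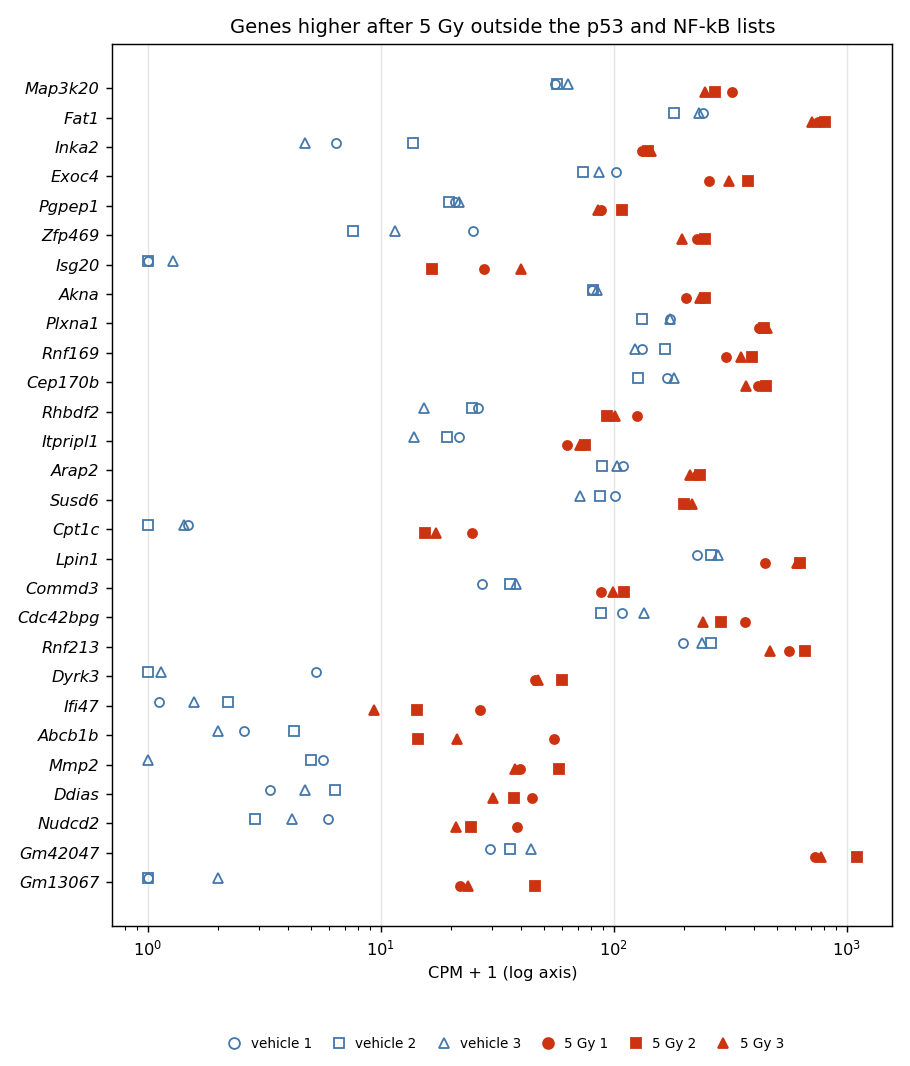
Level of 28 genes called higher outside the p53 and NF-kB lists, 26 by rule with a symbol and 2 predicted, as CPM + 1 on a log axis; open blue symbols are the 3 vehicle libraries and filled red symbols the 3 libraries after 5 Gy. In each row the red symbols lie to the right of the blue ones, a pattern that 1231 of all 16051 tested genes showed (7.67%). Gm42047 goes from 35.4 to 869.8 CPM in the mean, and Isg20 and Cpt1c start near 0.

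The gene called with the smallest p outside the lists has no assigned function. Gm42047, a predicted long noncoding RNA gene on chromosome 8, had 28.5, 34.7 and 43.0 CPM in vehicle 1 to 3 and 727, 1105 and 777 CPM in IR 1 to 3, a log2 change of 4.62 ± 0.29 (adjusted p 2.45e-08). Its irradiated level, 151 FPKM in the mean, was within the range of the better-known response genes per length, where Ccng1 had 145 and Cdkn1a 241. The nearest gene with counts, Klhdc4, lies 3678 bases away on the other strand and had a log2 change of 0.34 (adjusted p 0.889). Zfp469 is on the same chromosome, and the identifier deposited with that symbol is a long noncoding RNA gene in the GENCODE annotation, so which gene the counts belong to is uncertain. Its level rose from 13.7 ± 9.10 to 222 ± 25.3 CPM (SD, n = 3) (log2 change 4.01 ± 0.45, adjusted p 3.36e-05).

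Counts at the Mir34a locus rose as well. The microRNA miR-34a is a well-known p53-induced small RNA, and 2 predicted noncoding genes on the same strand of chromosome 4 flank or overlap its hairpin. Gm13067, whose end lies 11478 bases before the hairpin, had 0, 0 and 7 counts in vehicle 1 to 3 and 167, 332 and 158 counts in IR 1 to 3 (adjusted p 0.00163). Gm37795, which overlaps the end of the hairpin, had 0, 0 and 14 counts in vehicle 1 to 3 and 242, 250 and 218 counts in IR 1 to 3 (adjusted p 0.00294). Vehicle libraries 1 and 2 thus had no count at either gene, and every irradiated library had more than 150. Mir34a itself had 14 counts in IR 1 and none in the other 5 libraries and was not tested. The libraries were made from long RNA, so the mature microRNA was not measured. It is shown because the locus carries the counts, with the seed, bases 2 to 8, in capitals (RefSeq, build GRCm38.p6, chr4:150068473-150068494, + strand).
mmu-miR-34a-5p: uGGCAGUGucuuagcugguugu

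Promoters of the called genes were searched for 3 short motifs. The search used RefSeq promoters, 250 bases before to 50 bases after a start, build GRCm38.p6, on both strands. A pair of p53 core sequences was written as CATG, any 6 bases and CATG, the NF-kB motif as GGNNTTTCC and an interferon response motif as GAAANNGAA. Of the 114 genes called higher, 95 had at least one promoter in the table, with 119 promoters in all. The p53 pair was found in 3 of the 119 (2.52%) and in 0.712% of all 32851 promoters in the table, or 0.289% of the 13492 promoters of tested genes. The NF-kB motif was found in 16 of 119 (13.4%), against 5.82% of all promoters and 6.05% of those of tested genes. Split by list, the NF-kB motif was in 10 of 43 promoters of genes on the 2 lists (23.3%) and in 6 of 76 outside them (7.89%). The interferon motif was in 4 of 119 (3.36%), in 8.56% of all and in 6.85% of those of tested genes. These counts describe letters in a short window, and a promoter without a match may hold a site elsewhere.

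The promoters with the p53 pair belong to Cdkn1a, the cell cycle inhibitor that is the best-known p53 target, and to 2 genes outside the lists, Isg20 and C77080. They are printed with 25 bases on each side of the match, or as many as the window held, and with the matched letters in capitals. The bases between the 2 cores differ between these genes. The pattern fixed only the 2 CATG cores and left the bases between and beside them free, so a match alone does not mark a p53 site. Whether a match lies in a repeated sequence was not tested, and p53 binding was not measured. The match began 48 bases before the start in Cdkn1a (chr17:29090906-29090969, + strand), 246 bases before it in Isg20 (chr7:78913174-78913216, + strand) and 225 bases before it in C77080 (chr4:129261591-129261654, - strand).
Cdkn1a: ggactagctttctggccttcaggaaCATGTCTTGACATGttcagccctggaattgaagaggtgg
Isg20: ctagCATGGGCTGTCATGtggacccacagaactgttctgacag
C77080: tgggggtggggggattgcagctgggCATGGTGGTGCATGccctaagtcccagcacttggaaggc

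Cdkn1a had 231, 188 and 221 CPM in vehicle 1 to 3 and 925, 892 and 787 CPM in IR 1 to 3 and C77080 had 155, 111 and 129.8 CPM in vehicle 1 to 3 and 283, 262 and 283 CPM in IR 1 to 3 (log2 changes 2.02 ± 0.16 and 1.06 ± 0.17, adjusted p 4.15e-07 and 0.00145). Among called genes outside the lists with a promoter, 5 of 63 held the NF-kB motif (7.94%), near the 7.17% of tested genes. It was found upstream of the start in Casp4 (chr9:5308732-5308790, + strand), H2-Q4 (chr17:35379419-35379477, + strand), Traf3 (chr12:111166120-111166158, + strand) and Phldb1 (chr9:44735383-44735441, - strand). They are set beside Nfkbia (chr12:55492792-55492850, - strand), the inhibitor that NF-kB itself induces, again with the match in capitals; Akna held its match after the start and is not shown.
Nfkbia: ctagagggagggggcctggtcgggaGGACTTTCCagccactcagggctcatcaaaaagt
Casp4: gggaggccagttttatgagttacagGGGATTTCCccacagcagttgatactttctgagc
H2-Q4: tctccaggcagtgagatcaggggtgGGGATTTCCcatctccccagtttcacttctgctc
Traf3: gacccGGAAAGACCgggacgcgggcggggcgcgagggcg
Phldb1: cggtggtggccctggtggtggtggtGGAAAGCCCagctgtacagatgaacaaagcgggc

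Beyond the p53 and NF-kB lists, 15 further pathway lists were counted, to be read against 0.710% of all tested genes called higher and 0.0249% called lower. These lists too were chosen with earlier results of these data known, so their counts are description and no test of a list. Of 41 tested interferon-stimulated genes 3 were called higher, Isg20, Ifi47 and Parp14, with a list median log2 change of 0.88. Of 24 antigen presentation genes 3 were called higher, Tapbp, H2-Q4 and Psmb8, with a median of 0.96. DESeq2 called 8 on each of these lists, edgeR without a filter 9 on each, and edgeR without IR 3 called 6 and 9. Both medians stand beside -0.002 for all tested genes, and their behaviour by library is given below with the keratinocyte markers. The TNF family list had 3 of 21 higher, Eda2r, Tnfrsf10b and Fas, all of them receptors that are also on the p53 list. Eda2r, the receptor of an ectodysplasin, was at 0.491, 0 and 1.15 CPM in vehicle 1 to 3 and 44.2, 40.2 and 37.2 CPM in IR 1 to 3, and limma on log2(FPKM + 0.1) gave it an adjusted p of 0.0503. Among lipid and xenobiotic metabolism genes 3 of 34 were higher, Ephx1, Cpt1c and Lpin1, where Ephx1 is also a p53 list member. Matrix proteases and inhibitors had 2 of 23, Mmp2 and Adam8, and the ligand list had 1 of 36, Csf1, an NF-kB list member. Adam8 rose 5.38-fold (adjusted p 0.0423) and was not called without IR 1, IR 3, vehicle 2 or vehicle 3 (adjusted p 0.118 to 0.178). The list of axon guidance and neuronal cytoskeleton genes had 1 of 40 higher, Plxna1, and 1 lower, Nav1. No member was called among 46 DNA damage signalling and repair genes, 36 replication and mitosis genes, 31 autophagy genes, 25 NRF2 antioxidant genes, 31 immediate early genes, 28 pigment genes or 24 melanocyte lineage regulators in edgeR's test. At an unadjusted p under 0.05 these 7 lists held 6, 3, 2, 3, 10, 5 and 5 members in either direction, beside 4.93% of all tested genes higher and 3.33% lower, and DESeq2 called 1, 1, 0, 0, 1, 0 and 0 of them. The DNA damage list shares no tested member with the p53 list, on which the repair genes Ercc5 and Polk were called higher. Ercc5 was not called without IR 1, IR 2, IR 3, vehicle 2 or vehicle 3, and Polk was not called in limma on log2(FPKM + 0.1).

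Several of these lists leaned one way without calls, while 7995 of all 16051 tested genes had a positive change. NRF2 antioxidant genes were positive in 22 of 25, with a median of 0.25, and Hmox1, the heme-degrading enzyme, had 12.5, 5.92 and 7.90 CPM in vehicle 1 to 3 and 18.5, 36.8 and 19.0 CPM in IR 1 to 3 (adjusted p 0.284). Immediate early genes were negative in 23 of 31, with a median of -0.18 and 8 at an unadjusted p under 0.05. Fosb, a subunit of AP-1, had 6693, 5791 and 5436 CPM in vehicle 1 to 3 and 3731, 4292 and 3971 CPM in IR 1 to 3, so all 3 irradiated values were below all 3 vehicle values (log2 change -0.58 ± 0.18, adjusted p 0.267). Fosb was called lower in the fit of 6 libraries and in edgeR without a filter. Without 1 library the list median ran from -0.36 (IR 1) to -0.11 (vehicle 1), and was -0.12 without IR 2. Pigment genes were negative in 20 of 28, with a median of -0.20, yet Tyrp1, an enzyme of melanin synthesis, had 760.1, 931 and 931 CPM in vehicle 1 to 3 and 1077, 1218 and 1478 CPM in IR 1 to 3 (log2 change 0.52 ± 0.16, adjusted p 0.214). The pigment median was -0.00018 without IR 1, -0.35 without IR 3 and -0.13 without vehicle 1, so the lean rested on IR 1. Replication and mitosis genes were negative in 24 of 36, with a median of -0.20, which was -0.31 without IR 1 and -0.30 without vehicle 2. Rrm1, a subunit of ribonucleotide reductase, went the other way, at 62.4, 63.8 and 62.1 CPM in vehicle 1 to 3 and 112, 124 and 104 CPM in IR 1 to 3 (adjusted p 0.0692), and was called higher in the fit of 6 libraries, with DESeq2, with the keratinocyte covariate and without a filter.

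Only 4 genes were lower at an adjusted p under 0.05. Nav1, a microtubule-binding protein of growing neurites, had 859, 839.5 and 759 CPM in vehicle 1 to 3 and 326, 448 and 459 CPM in IR 1 to 3. Every irradiated value was far below the lowest vehicle value, with a log2 change of -0.99 ± 0.16 (adjusted p 0.0023). Adra1a, an adrenergic receptor that signals through Gq, had 42.2, 26.9 and 20.7 CPM in vehicle 1 to 3 and 5.62, 9.89 and 7.78 CPM in IR 1 to 3 (log2 change -1.95 ± 0.40, adjusted p 0.0213). Gucy1b1, the beta subunit of the soluble guanylate cyclase that senses nitric oxide, had 223, 254 and 223 CPM in vehicle 1 to 3 and 131, 124 and 171 CPM in IR 1 to 3 (log2 change -0.72 ± 0.16, adjusted p 0.0422). Gm2115, a predicted gene, had 107, 121 and 117 CPM in vehicle 1 to 3 and 36.6, 46.6 and 74.1 CPM in IR 1 to 3 (log2 change -1.13 ± 0.23, adjusted p 0.02). Within each of the 4 genes the groups did not overlap, a pattern that 988 of all tested genes showed in this direction (6.16%). The vehicle libraries were close together in all except Adra1a. In bulk RNA a fall can come from fewer cells of a type or from less RNA per cell, and the counts cannot tell these apart.

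Adra1a and Gucy1b1 were the 2 called members of 39 tested cyclic nucleotide and adrenergic signalling genes, whose median log2 change was -0.19, where 0.0249% of all tested genes were called lower. The median was -0.05 without IR 1 and -0.07 without vehicle 1 or vehicle 2. The list was chosen with earlier results of these data known, so its count of calls is description and no test of the list. Gucy1a1, which encodes the alpha subunit of the same cyclase and lies 17738 bases from Gucy1b1, had 1043, 622 and 598 counts in vehicle 1 to 3 and 400, 402 and 540 counts in IR 1 to 3 (log2 change -0.71, adjusted p 0.286). Both subunits had all 3 irradiated counts below the 3 vehicle counts.

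Nav1 was called lower under all 16 alternative settings, and the other 3 genes were not. Without IR 1 the adjusted p was 0.0602 for Adra1a, 0.103 for Gucy1b1 and 0.0549 for Gm2115. Without vehicle 1 it was 0.172, 0.111 and 0.0539. Gucy1b1 kept its call in 1 of the 6 fits that left out 1 library, the one without IR 3, and Gm2115 also in that one only. Adra1a was not called without IR 3 (adjusted p 0.0895). In the fit of 6 libraries and with a replicate block, Gucy1b1 was not called either (adjusted p 0.0776 and 0.0716). Neither limma fit called any of these 3 genes (adjusted p 0.0754 to 0.24). The count of lower genes depended on the method and on the libraries, from 2 without any 1 of the vehicle libraries to 39 with DESeq2.

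The 10 next genes by p, not called, had values of the same kind. Socs3, a feedback inhibitor of cytokine signalling, had 889, 915 and 760.4 CPM in vehicle 1 to 3 and 598, 631 and 557 CPM in IR 1 to 3 (adjusted p 0.116). Rnf144a, a ubiquitin ligase, had 189, 188 and 147 CPM in vehicle 1 to 3 and 100.1, 114 and 91.9 CPM in IR 1 to 3 (adjusted p 0.0606). Plekhg1, Wscd1 and Chchd1 had log2 changes of -1.09, -0.84 and -1.81, with adjusted p of 0.0708 to 0.102. Among them, Gm48738 had 46, 49 and 11 counts in vehicle 1 to 3 and 0 in each irradiated library, and Krt32, a hair keratin, 20, 5 and 34 counts against 0, 1 and 0.

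**Figure D2:**
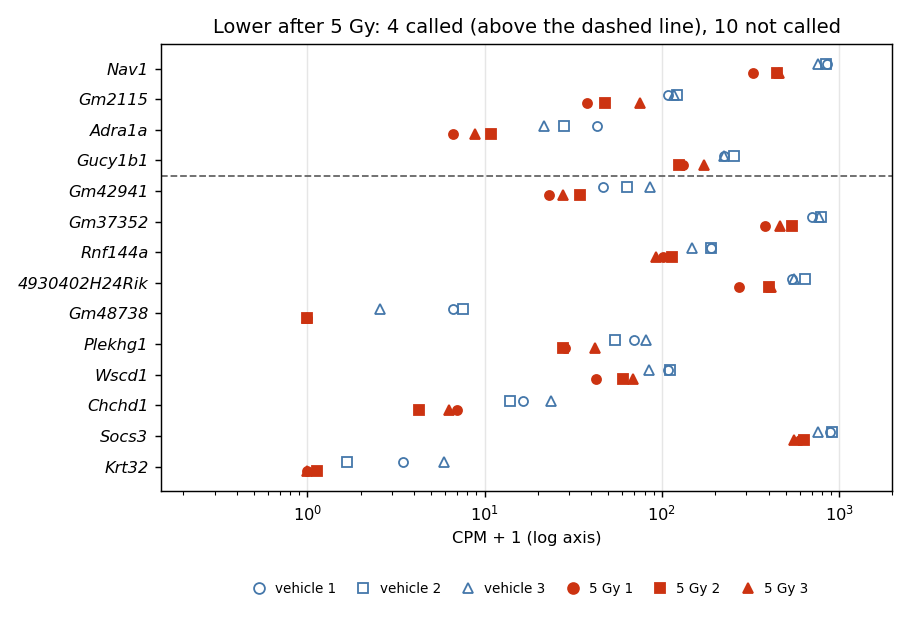
Level of the 4 genes called lower after 5 Gy and of the 10 lower genes with the next smallest p, as CPM + 1 on a log axis; open blue symbols are vehicle libraries, filled red symbols libraries after 5 Gy, and the dashed line separates called from not called. In all 14 rows the red symbols lie left of the blue ones, a pattern that 988 of all 16051 tested genes showed (6.16%). Nav1 goes from 819 to 411 CPM in the mean.

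Calls were concentrated among abundant genes. The tested genes were divided by mean log2 CPM over the 9 libraries into 5 expression classes of equal size, from 0.498 to 3.12 CPM in the lowest to 67.5 CPM and more in the highest. From the lowest class to the highest, 3, 4, 20, 24 and 63 genes were called higher and 0, 0, 1, 0 and 3 lower, which is 0.0935%, 0.125%, 0.654%, 0.748% and 2.06% of each. Of the 77 genes outside the lists, 42 were in the highest class and 3 in the lowest. The median standard error of a log2 change fell from 1.47 in the lowest class through 0.768, 0.426 and 0.274 to 0.185 in the highest. The smallest rise that was called went from a log2 change of 6.84 through 4.60, 1.5 and 1.11 to 0.69. All called rises of under 1 log2 unit, Cd44 and Polr2a among them, were in the highest class.

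Size of change followed level in the opposite way. The median size of the log2 change, whatever its sign, was 0.842, 0.493, 0.318, 0.217 and 0.162 from the lowest class to the highest, in each case below the median standard error of that class. Changes of more than 1 log2 unit numbered 1385, 641, 205, 68 and 49, and 3, 4, 21, 24 and 44 of these were called. Their direction was nearly even among low genes, with 719 higher and 666 lower in the lowest class and 322 against 319 in the next. It was uneven among abundant genes, with 56 higher and 12 lower in the second highest class and 47 higher and 2 lower in the highest. The 2 lower ones were Gm2115 and Slc15a2, a peptide transporter that was not called (17.8, 432 and 291 CPM in vehicle 1 to 3 and 36.0, 121 and 113 CPM in IR 1 to 3). The 4 of the 47 that were not called were Scd1, a fatty acid desaturase, and Tap2, H2-K1 and Gbp2, genes of antigen presentation and the interferon response.

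The 3 called genes of the lowest class rest on few counts. Sec14l5 had 0 counts in each vehicle library and 29, 95 and 40 in IR 1 to 3, which is at least 55.2-fold higher when the vehicle group is set to 3 counts. Prr7 had 0 counts in each vehicle library and 57, 16 and 18 in IR 1 to 3, at least 30.6-fold higher on the same terms. Mab21l3 had 1, 0 and 0 counts in vehicle 1 to 3 and 97, 14 and 45 in IR 1 to 3, a ratio of 157 with an exact 95% interval of 27.8 to 6258 that covers counting error only and not the spread between libraries. Of the 6 fits that left out 1 library, Sec14l5 was called only without IR 1, and Prr7 and Mab21l3 only without IR 2. The classes were cut anew in each of these fits, and no gene of their lowest class was called. Among genes with too few counts for the test, Gm47017 had 2, 88 and 5 counts in IR 1 to 3 and 1, 5 and 0 in vehicle 1 to 3. Ccer2 had 84, 0 and 6 against 0 in each vehicle library. Both had most of their counts in a single irradiated library.

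**Figure D3:**
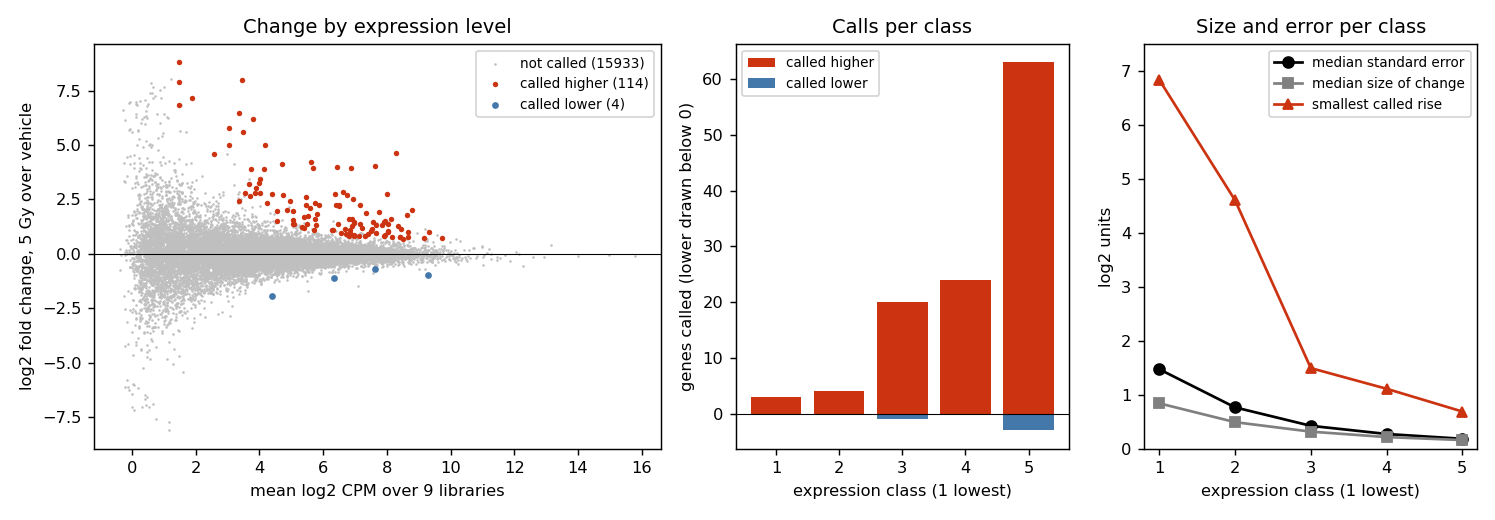
Left, log2 fold change after 5 Gy against mean log2 CPM for 16051 genes, with 114 called higher in red and 4 called lower in blue; middle, number of genes called in each of 5 expression classes; right, median standard error, median size of change and smallest called rise in each class, in log2 units. Calls rise from 3 in the lowest class to 66 in the highest while the median standard error falls from 1.47 to 0.185.

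The irradiated libraries differed far more than the vehicle libraries in keratinocyte RNA. The summed level of 18 basal keratinocyte markers was 1825, 1519 and 2273 FPKM in vehicle 1 to 3 and 3790, 836 and 1406 FPKM in IR 1 to 3. The highest irradiated library exceeded the lowest 4.53-fold, against 1.5-fold among vehicle libraries. For 19 markers of differentiated epidermis the sums were 1002, 974 and 1114 FPKM in vehicle and 2788, 412 and 1176 FPKM in IR 1 to 3, a range of 6.77-fold against 1.144-fold. IR 1 was above and IR 2 below all 3 vehicle libraries on both lists. The follicle keratins Krt17 and Krt79 carried a list of 20 follicle markers, whose sums were 107, 88.3 and 157 FPKM in vehicle and 366, 28.2 and 51.4 FPKM in IR 1 to 3. Of these 20 markers 5 were at 0 in all 6 libraries, among them the inner root sheath keratins Krt25, Krt72 and Krt73. Krt71, another keratin of that sheath, had 0 counts in each vehicle library and 18, 18 and 10 counts in IR 1 to 3 (adjusted p 0.35). Melanocyte markers varied less, with 1750, 1775 and 1774 FPKM in vehicle and 1658, 1765 and 2294 FPKM in IR 1 to 3.

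Single markers followed the same order of libraries. IR 1 exceeded IR 3 and IR 3 exceeded IR 2 in 17 of 18 basal markers, all except the laminin chain Lama3, and in 19 of 19 markers of differentiated epidermis. Krt10, a keratin of differentiating epidermis, had 746, 623 and 820.4 CPM in vehicle 1 to 3 and 1977, 317 and 963 CPM in IR 1 to 3. Dsp, a desmosome protein, had 1342, 1194 and 1826 CPM in vehicle 1 to 3 and 3520.1, 629.6 and 1429 CPM in IR 1 to 3. In both genes IR 1 was the highest and IR 2 the lowest of the 6 libraries. The median standard deviation of log2 CPM between replicates was 1.15 among irradiated and 0.295 among vehicle libraries for basal markers, and 1.42 and 0.442 for differentiated ones. Over all tested genes it was 0.388 and 0.406, so the larger spread of irradiated libraries was not general. For the 114 genes called higher it was 0.207 and 0.281. The tested genes with a mean of at least 50 CPM that spread most among irradiated libraries were Spink5, Krt17, Dsc1, Tgfbi and Gata3, and Spink5, a protease inhibitor of the epidermis, had 22.6, 95.3 and 36.6 CPM in vehicle 1 to 3 and 199, 1.35 and 49.4 CPM in IR 1 to 3.

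The mean keratinocyte level did not differ between the groups beyond this spread. The median log2(FPKM + 1) of the basal markers was 5.72 in vehicle and 5.71 after irradiation (two-sided exact permutation p = 1.0, where 3 against 3 libraries cannot go below 0.10). For differentiated epidermis it was 3.39 and 3.22 (exact permutation p = 0.8). No basal, differentiated or follicle keratinocyte marker was called in edgeR's test, nor by DESeq2 or by limma on log2(FPKM + 1), and an unadjusted p under 0.05 was reached by 0, 1 and 1 of them in edgeR. Leaving out a library gave calls in both directions. Without IR 1, the basal markers Krt5, Col17a1 and Epcam and the follicle keratins Krt17 and Krt79 were called lower, and the 2 irradiated libraries left in that fit are those with less keratinocyte RNA. Without IR 2, the library with the least, the differentiated keratins Krt10 and Krt77 were called higher, as they were in edgeR without a filter.

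**Figure D4:**
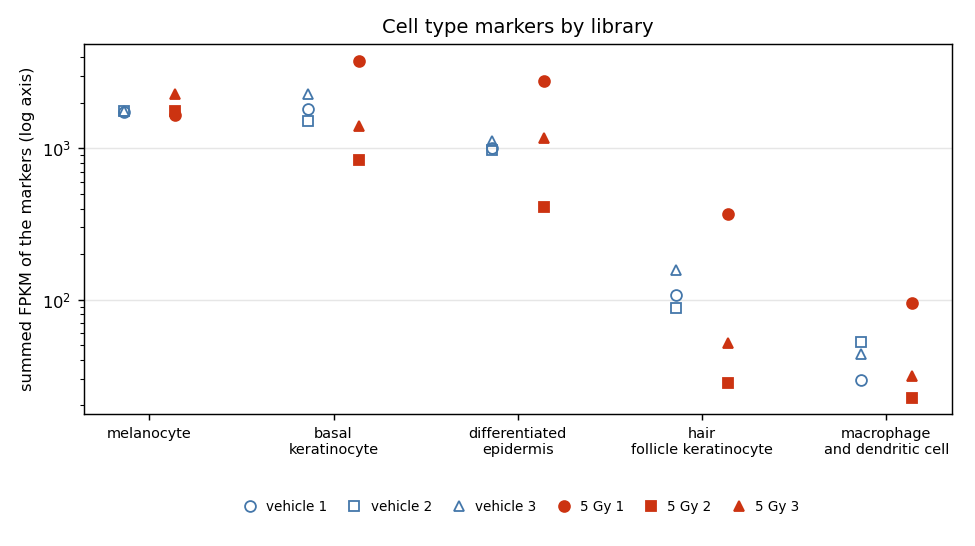
Summed FPKM of 5 lists of cell type markers, on a log axis, in 3 vehicle libraries (open blue) and 3 libraries after 5 Gy (filled red), with 1 symbol shape for each replicate number. Melanocyte sums lie between 1658 and 2294 FPKM, while basal keratinocyte sums after 5 Gy run from 836 in library 2 to 3790 in library 1.

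Genes called higher outside the p53 and NF-kB lists had their highest irradiated value in different libraries. Of the 77, 23 had their highest irradiated value in IR 1, 38 in IR 2 and 16 in IR 3, whereas all tested genes divided into 5633, 5572 and 4846. A call favours genes with a small spread among irradiated libraries, so this count does not bear on cell content. With each library's median basal keratinocyte marker level as a covariate, 156 genes were higher and 18 lower, and all 114 and all 4 original calls were among them. The genes higher outside the lists then numbered 117. Without IR 1 there were 76 such genes, and 62 of the 77 were among the genes called.

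Most antigen presentation genes were highest in IR 1 among irradiated libraries. This held for 20 of 24 tested antigen presentation genes and 21 of 41 interferon-stimulated genes, beside 5633 of all 16051 tested genes, and the difference was not tested. Psmb8, a subunit of the immunoproteasome, had 15.5, 8.48 and 16 CPM in vehicle 1 to 3 and 99.5, 33.9 and 30.1 CPM in IR 1 to 3 (log2 change 2.03 ± 0.42, adjusted p 0.0249). H2-Q4, a class I histocompatibility gene with close paralogs whose reads can be shared, had 166, 177 and 255 CPM in vehicle 1 to 3 and 562, 370.4 and 297 CPM in IR 1 to 3 (log2 change 1.04 ± 0.21, adjusted p 0.0224). Tapbp, the chaperone tapasin of peptide loading, had 79.4, 68.5 and 88.4 CPM in vehicle 1 to 3 and 296, 177 and 161 CPM in IR 1 to 3 (log2 change 1.42 ± 0.21, adjusted p 0.00103). In all 3 the IR 1 value was the highest of the 6, and the other irradiated values were still above every vehicle value. Ifi47, an interferon-induced GTPase, had 0.123, 1.21 and 0.575 CPM in vehicle 1 to 3 and 25.6, 13.3 and 8.36 CPM in IR 1 to 3, and Parp14 74.0, 55.3 and 49.3 CPM in vehicle 1 to 3 and 153, 146 and 89.1 CPM in IR 1 to 3 (adjusted p 0.0128 and 0.026). Without IR 1 the only calls left were Tapbp among antigen presentation genes and Isg20 among interferon-stimulated ones. The median log2 changes of these lists were then 0.51 and 0.71, against 0.96 and 0.88 in the main test. The log2 change without IR 1 was 1.27 for Psmb8 (adjusted p 0.21), 0.74 for H2-Q4 (0.0691), 4.06 for Ifi47 (0.156) and 0.98 for Parp14 (0.0751). Each of these 4 genes also lost its call without at least 2 of the 3 vehicle libraries in turn (adjusted p 0.0545 to 0.173). With the keratinocyte covariate the calls grew to 9 and 5, adding B2m, H2-D1, H2-K1, Nlrc5, Tap1 and Tap2 to the first list and Gbp2 and Gbp3 to the second. The part of cell content in these rises was not tested.

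IR 1 had the highest sum of antigen-presenting cell markers. The summed level of 14 macrophage and dendritic cell markers was 29.3, 52.1 and 43.7 FPKM in vehicle and 95.5, 22.5 and 31.1 FPKM in IR 1 to 3. H2-Ab1, a class II histocompatibility gene, had 4, 29 and 34 counts in vehicle 1 to 3 and 439, 3 and 47 counts in IR 1 to 3. Cd207, the Langerhans cell lectin, had 0, 0 and 1 counts in vehicle and 40, 0 and 2 counts in IR 1 to 3. Cd68, a lysosomal protein of macrophages, had no such peak, with 218, 380 and 323 counts in vehicle 1 to 3 and 230, 188 and 209 counts in IR 1 to 3. Lyz2 and Fcgr3, markers of macrophages, were at 0 in all 6 libraries. Their part in the class I values above was not tested.

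The set of genes called lower depended on how the keratinocyte spread was handled. Without IR 1, 20 genes were lower, among them the keratins Krt5, Krt17, Krt79 and Krt80 and the hemidesmosome collagen Col17a1. With the covariate, 18 were lower, and none of those 5 was. The 2 sets shared 5 genes, Nav1, Egr1, Mki67, Sostdc1 and Adgrl2, of which Nav1 alone was also called in the fit of all libraries without a covariate. Egr1, an immediate early transcription factor, had 2591, 2361 and 2039.5 CPM in vehicle 1 to 3 and 1896, 1437 and 1575 CPM in IR 1 to 3, with an adjusted p of 0.147 in that fit, 0.0166 without IR 1 and 0.0266 with the covariate. Mki67, a marker of dividing cells, had 42.1, 41.5 and 101 CPM in vehicle 1 to 3 and 43.1, 3.11 and 9.80 CPM in IR 1 to 3, with adjusted p of 0.371, 0.000566 and 0.00458. Its IR 1 value was close to those of vehicle 1 and 2, while IR 2 and IR 3 were far below all vehicle values. Whether the low Mki67 of IR 2 and IR 3 belongs to melanocyte stem cells or to keratinocytes was not tested. Without IR 1, the pigment genes Mlph and Tyrp1 were called higher (adjusted p 0.0134 and 0.05).

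**Figure D5:**
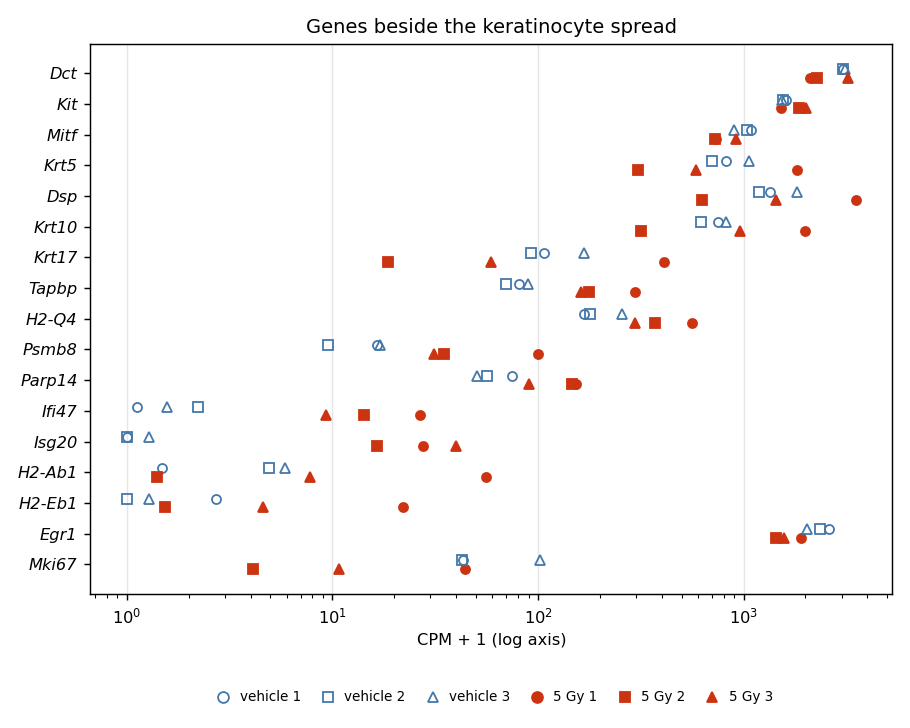
Level of 17 genes, chosen after their values were seen, as CPM + 1 on a log axis, in 3 vehicle libraries (open blue) and 3 libraries after 5 Gy (filled red). Krt5, Dsp, Krt10 and Krt17 have library 1 highest and library 2 lowest after 5 Gy, and Tapbp, H2-Q4 and Psmb8 share the high library 1 but keep all 3 red symbols to the right of the blue ones.

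Counting limits bear on some of these genes. The sources used here do not say whether reads were counted by strand, and 40 of the 118 called genes overlap another gene with at least 10 counts, so reads of such pairs may not be told apart. Nav1 spans Gm4793, 2610012C04Rik and Gm37333, none of which had more than 271 counts in any of the 6 libraries. C77080 overlaps Yars, Ifi47 overlaps Olfr56 and Cpt1c overlaps 6530437J22Rik. Within 10000 bases of each other lay 3 pairs of called genes: Isg20 begins 2215 bases after Aen, Slc35b2 lies 705 bases from Nfkbie and Nudcd2 8506 bases from Ccng1. In each pair the first-named gene is outside the lists and its neighbour is on one. Nudcd2 rose from 3.32 ± 1.52 to 26.9 ± 9.18 CPM (SD, n = 3) (adjusted p 0.00288) and Slc35b2 from 21.1 ± 5.57 to 55.4 ± 9.77 CPM (SD, n = 3) (adjusted p 0.0331). Slc35b2 was not called without IR 1, IR 3, vehicle 1 or vehicle 3 (adjusted p 0.0635 to 0.175).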

How the data were processed

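RNA was sequenced from sorted melanocyte stem cells in 3 vehicle, 3 irradiated and 3 DMBA libraries. Per the labels' protocols, total RNA was purified on columns and libraries were made with a stranded SMARTer kit. HISAT2 2.0.1 and HTSeq 0.6.1 are named, with no role, in the submitters' processing notes, as are cutadapt 1.9.1 and bcl2fastq 2.17.1.14. The sources used here give no genome build, annotation or strand setting for the counting. The deposited table holds whole-number counts per gene and library, not normalized, and FPKM, which the authors deposited beside the counts, scaled by exonic length and library total. Counts went through edgeR 4.0.16 (filterByExpr with a minimum count of 10, TMM, quasi-likelihood test over all 9 libraries, two-sided contrast of IR with vehicle, Benjamini-Hochberg over 16051 genes, called under 0.05). CPM use TMM-scaled totals. SE is on the log2 scale and was derived from the test, as the size of the log2 change divided by the square root of its F statistic. The residual BCV was 49.0%, which limits what 3 libraries a group can show.

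The comparison, gene lists and marker lists were chosen with earlier results of these data known. Outside the p53 and NF-kB lists, the genes named by rule are the 20 called with the smallest p, the 10 with the largest fold change at a mean of at least 10 CPM after IR, and 2 predicted genes. Also by rule, all genes called lower, the next 10 by p and the 3 members of each list with the smallest p were eligible, and other genes were chosen after their values were seen. Marker levels are summed FPKM and medians of log2(FPKM + 1), compared by exact permutation tests.

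Deviations of same-numbered vehicle and irradiated libraries correlated at 0.019 to 0.042, and those of differently numbered ones at -0.034 to 0.018. These small values do not settle whether replicate numbers pair the libraries, and the main test used no pairing. No 2 libraries of 1 group agreed within sampling noise (chi-square per degree of freedom 15.9 to 39.7). Gene distances come from the deposited coordinates, and sequences and their positions from RefSeq on GRCm38.p6. The deposited positions differ from those of GRCm38.p6, and the 2 were not mixed. The test was checked on simulated counts. Alternatives were DESeq2 1.42.0, limma 3.58.1 on log2(FPKM + 1) and log2(FPKM + 0.1), other filters and scalings, 6 libraries alone, a keratinocyte covariate, a replicate block and each library left out.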

Additional observations from a re-analysis of the deposited data

How the results depend on the processing

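Over 16 alternative settings, no named called gene changed direction: of 841 values for 53 named genes, 755 were still called and 86 were not. Of the 77 genes higher outside the p53 and NF-kB lists, 35 were called in every setting that gave a value, 36 were lost when some library was left out and 6 only elsewhere. For genes on the 2 lists these numbers were 22, 12 and 3.

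Genes called higher numbered 114, and 218 with DESeq2, 209 without a filter, 63 with limma on log2(FPKM + 0.1) and 74 to 111 with 1 library left out. Genes called lower numbered 4, and 39 with DESeq2, 27 without a filter, 18 with the keratinocyte covariate, 8 with library totals only, 7 with limma on log2(FPKM + 1), 7 with a mean of at least 5 CPM and 2 to 20 with 1 library left out. Genes higher outside the lists numbered 77, and 173 with DESeq2, 165 without a filter, 117 with the covariate, 41 and 49 with limma on log2(FPKM + 0.1) and log2(FPKM + 1), and 47 to 76 with 1 library left out. The lowest counts came without vehicle 3 (74 higher, 47 outside the lists), and the 20 lower genes without IR 1.

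In the lowest of 5 expression classes 3 genes were called, and 0 with DESeq2, 0 without a filter, 6 with limma on log2(FPKM + 1), 7 with a mean of at least 5 CPM and 0 in each fit with 1 library left out. In the highest class 66 were called, and 162 with DESeq2, 174 without a filter, 35 and 37 with limma on log2(FPKM + 0.1) and log2(FPKM + 1), and 43 to 79 with 1 library left out. Classes were cut anew in each setting, so a gene can change class. Those without a filter or with DESeq2 are cut from more genes, so their bounds are lower. DESeq2 tested 30995 genes here and the unfiltered fit 31041. With a replicate block 104 genes were higher, 3 lower, 68 higher outside the lists, and 0 and 59 called in the lowest and highest class. It called 98 of the 114 higher genes, and whether the numbers pair the libraries is not settled.

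The difference in basal keratinocyte level, -0.004, ran from -0.31 to 0.28 with 1 library left out, positive without IR 2 (0.28), IR 3 (0.02) or vehicle 3 (0.07). That of differentiated epidermis, -0.16, ran from -0.97 to 0.59, positive without IR 2 and as the log2 of summed FPKM (0.10). For the other changes the cause was not tested.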
